A study of Mus musculus with 30 samples.

Results

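Genes that remodel the extracellular matrix of muscle were examined in the gastrocnemius of mice on a stable or a repeatedly shifted light schedule. The 9 genes were Timp1, Timp2, Timp3, Mmp2, Mmp14, Lox, Sparc, Ccn1 and Ccn2, chosen by name and looked up by gene symbol among the 56951 symbols of the deposited tables. Each was found on 1 row, and 8 of the 9 were among the 12030 genes with enough reads to test. The exception was Timp1. Timp1, Ccn1 and Ccn2 were grouped as stress-induced genes, since serum, stretch and cytokines are known to induce them, and the other 6 were taken as stable. Genes and grouping were set with earlier results of these data known, so the set in which a call falls is a description only.

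Wild-type male C57BL/6J mice were housed singly with running wheels, entrained to a 12-h light and 12-h dark cycle for 2 weeks, held in constant darkness and returned to the light-dark cycle. The LD group (n = 14) then stayed on the fixed cycle, and the ADV group (n = 16) had the cycle advanced by 8 h every 4 days, each for 64 weeks, so that all mice were aged when the muscle was taken. The plantaris was collected with the gastrocnemius, and muscles were taken over a span of daytime hours, with the hour of each mouse not used here. Poly(A) RNA was sequenced in 1 library per mouse, with 18875468.5 to 28512674 reads on exons per library.

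Matrix metalloproteinases are zinc enzymes that cut matrix proteins, and TIMPs are secreted inhibitors that occupy their active sites. MMP14 sits in the cell membrane and activates the secreted pro-MMP2, with TIMP2 as the bridge between them. Lysyl oxidase (LOX) starts the crosslinking of collagen and elastin. SPARC, CCN1 and CCN2 are matricellular proteins, which are secreted into the matrix and act on cells and growth factors more than as scaffold. In skeletal muscle these genes are known mainly from fibroblasts and vessel cells, and both CCN genes are classic targets of YAP and TEAD, of serum response factor and of TGF-beta.

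Ccn1 and Ccn2 were higher in the ADV group at an edgeR FDR under 0.05. No member was lower at that threshold, which Timp2 narrowly missed (edgeR FDR 0.0565). With an FDR under 0.05 by edgeR's quasi-likelihood test, adjusted over all genes tested, 2 of the 8 tested members differed between the groups, both from the stress-induced set. Among all genes tested 10.8% passed the same threshold, 5.61% upward and 5.2% downward, and 2.09% passed it with a fold change over 1.3, as Ccn1 and Ccn2 also did. The median log2 fold change of all genes was 0.00. None of the 6 stable members passed, with Sparc higher and Timp2 lower at an unadjusted p under 0.05 by edgeR, which 30.1% of all genes reached. DESeq2 gave the same 6 genes 1 call, Timp2, with 14% of all genes called. Timp1, the remaining stress-induced gene, was near the detection limit and its groups had almost equal means. RNA of whole muscle was measured, in which more cells of a type and more RNA per cell cannot be told apart.

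**Figure D1:**
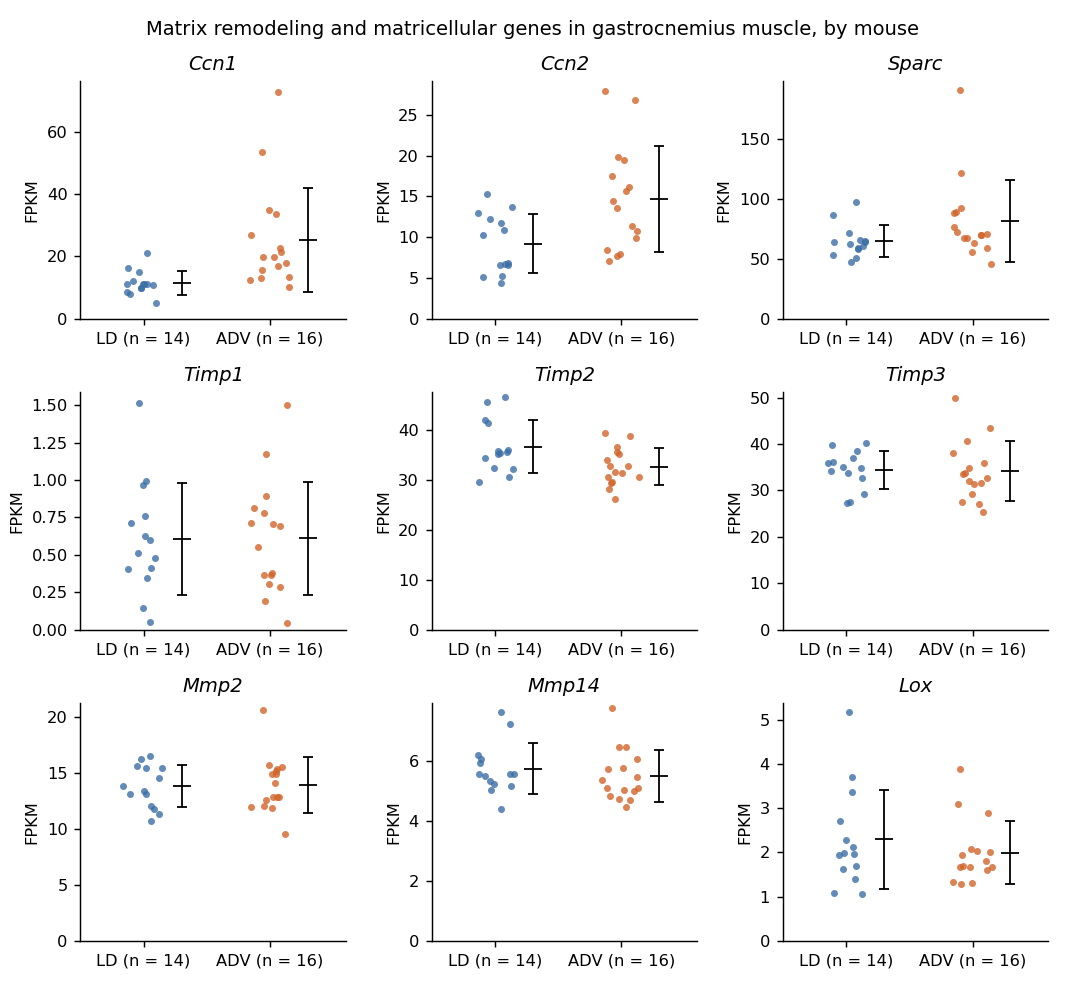
FPKM of each gene (vertical axes, linear and starting at 0) in the 14 LD mice (blue) and 16 ADV mice (orange), 1 point per mouse, with black marks for the mean ± SD. Of the ADV mice, 7 lie above the highest LD mouse for Ccn1 and 7 for Ccn2, whereas the points of both groups overlap over most of their range for Timp1, Timp3, Mmp2, Mmp14 and Lox.

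The promoter of Ccn1 is shown because this gene had the largest rise among the members, with that of Mmp2 beside it as a member whose groups hardly differed. Each sequence is the 250 bases of GRCm39 before the transcript start given in the deposited tables, read in the direction of the gene. Capitals mark matches, on either strand, to the TEAD element (GGAATG, written CATTCC where it lies on the other strand) or to a TATA box (TATAAA).
Ccn1, chr3:145355737-145355986, minus strand: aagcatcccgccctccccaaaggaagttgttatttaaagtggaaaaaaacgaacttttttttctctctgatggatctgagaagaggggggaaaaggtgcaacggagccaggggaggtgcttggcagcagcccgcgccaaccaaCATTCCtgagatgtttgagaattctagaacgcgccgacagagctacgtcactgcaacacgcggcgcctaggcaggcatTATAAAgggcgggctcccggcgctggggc
Mmp2, chr8:93553670-93553919, plus strand: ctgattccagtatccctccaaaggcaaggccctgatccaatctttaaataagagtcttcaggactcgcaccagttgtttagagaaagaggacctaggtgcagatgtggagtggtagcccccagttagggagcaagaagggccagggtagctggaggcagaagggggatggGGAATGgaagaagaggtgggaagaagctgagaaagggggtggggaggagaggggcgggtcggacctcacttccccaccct

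The Ccn1 window held 1 match to the TEAD element, at bases 107 to 102 before the start on the other strand, and a TATA box at bases 29 to 24. Mmp2 had 1 TEAD match, at bases 80 to 75, and Timp1 1 match at bases 248 to 243. Of the windows of 12028 tested genes, 10.4% held at least 1 TEAD match and 6.83% held a TATA box. No TEAD match was found in the windows of Timp2, Timp3, Mmp14, Lox and Sparc. A CArG box, the element bound by serum response factor, was in none of the 8 windows read and in 1.15% of all windows. The AP-1 element (TGANTCA, 4.06% of windows), the CRE (TGACGTCA, 2.69%) and the E-box (CACGTG, 8.33%) had no match in the 8 windows either. The heat shock element core, read only as GAANNTTC (4.89%), had none in that order of its parts. The opposite order of its parts was not searched in any window, and the Ccn1 window printed above holds it. A GC box (GGGCGG, 56.6% of windows), which shares no base with the marked matches, was found for Timp1, Mmp2, Mmp14 and Ccn1. These matches are a description of letters in a window and not of bound sites.

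Ccn1, which encodes a matricellular ligand of integrins and is an immediate early gene in many cells, lies on chromosome 3 (positions 145352732 to 145355736 of GRCm39, minus strand) in 5 exons (transcript ENSMUST00000029846.5, exons counted in GENCODE vM39). Its level in the LD group was 5.10 FPKM in the lowest mouse, 11.1 at the median and 21.1 in the highest. In the ADV group it was 10.03 FPKM in the lowest mouse, 19.9 at the median and 73.0 in the highest. The LD median was exceeded by 15 of 16 ADV mice and the highest LD mouse by 7, so the groups overlapped in their lower part. The means were 11.5 ± 3.898 FPKM (SD, n = 14) and 25.3 ± 16.8 FPKM (SD, n = 16), a 2.19-fold difference by edgeR (log2 fold change 1.13, standard error 0.25, FDR 0.00556). ADV mouse 25 was at 73.0 FPKM and ADV mouse 29 at 53.7 FPKM, followed by ADV mouse 33 at 34.999 and ADV mouse 24 at 33.5. Each of the 30 fits that left out 1 mouse kept an edgeR FDR under 0.05, and the log2 fold change was lowest, at 0.93, without ADV mouse 25. Without ADV mice 24 and 25 together it was 0.88 (edgeR FDR 0.0168).

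Ccn2, also called CTGF, encodes a matricellular cofactor of TGF-beta signaling, and lies on chromosome 10 (positions 24471341 to 24474576, plus strand) in 5 exons (ENSMUST00000020171.12). LD mice ranged from 4.34 FPKM through a median of 8.56 to 15.3. ADV mice ranged from 7.06 FPKM through a median of 14.02 to 27.98. The LD median was exceeded in 12 of 16 ADV mice and the highest LD mouse in 7. The means were 9.18 ± 3.63 FPKM (SD, n = 14) and 14.7 ± 6.48 FPKM (SD, n = 16), a 1.58-fold difference (edgeR log2 fold change 0.66, standard error 0.21, FDR 0.0395). The call stood closer to the threshold than that of Ccn1. Leaving out 1 mouse raised the edgeR FDR above 0.05, to between 0.0503 and 0.0744, in 13 of 30 fits, those without LD mouse 23, 27, 28, 30, 33, 35 or 36 or without ADV mouse 21, 24, 25, 29, 32 or 33. Without ADV mice 24 and 25, the highest for Ccn2 at 27.98 and 26.9 FPKM, the log2 fold change was 0.47 (edgeR FDR 0.138).

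Within the ADV group Ccn1 and Ccn2 varied together across mice. On log2 CPM, Pearson's r was 0.73 (permutation p = 0.00113, adjusted p = 0.00829 over the 22 correlations computed) and Spearman's rho 0.74 (permutation p = 0.00167, adjusted p = 0.0367). Without the mice farthest from the median of Ccn1, ADV mice 25 and 29, r was 0.68. In the LD group r was 0.50 (permutation p = 0.0674, adjusted p = 0.135) and rho 0.53 (permutation p = 0.0571, adjusted p = 0.126), with r at 0.06 once LD mice 23 and 26 were left out. The difference between the groups in this correlation was not tested. The ratio of Ccn1 to Ccn2 FPKM had a median of 1.33 in LD mice (0.695 to 2.27) and of 1.56 in ADV mice (0.883 to 3.32), and these ranges largely coincided.

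**Figure D2:**
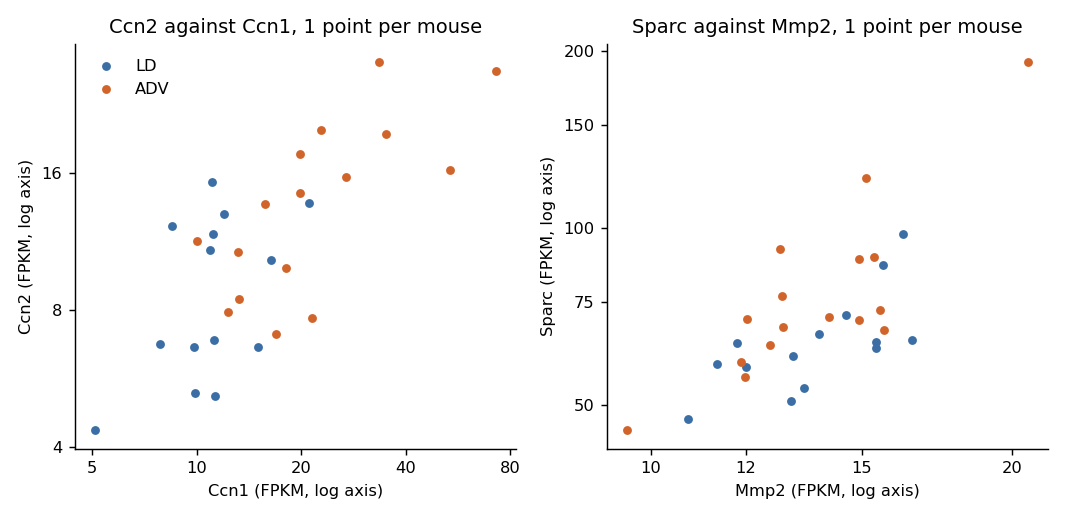
Ccn2 against Ccn1 (left) and Sparc against Mmp2 (right), in FPKM on log axes, 1 point per mouse, LD in blue and ADV in orange. ADV mice 25 and 29 hold the highest Ccn1 values, 73.0 and 53.7 FPKM, and ADV mouse 24 is the single point at the upper right of the Sparc plot, at 191 FPKM.

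The genes whose log2 CPM followed Ccn1 most closely over the 30 mice, after the group means were removed, were Csrnp1, Btg2, Mafk, Thbs1 and Lmod2, with Spearman coefficients of 0.85, 0.80, 0.80, 0.76 and 0.74. Ccn2 was the 18th gene in this order, at 0.66. The closest genes to Ccn2 were Lrrc8a, Thbs1, Klf6, Tlr4 and Tcim, at 0.83, 0.82, 0.82, 0.81 and 0.80, and Ccn1 was the 74th. Thbs1, which encodes the matricellular protein thrombospondin 1, was the gene the 2 lists had in common. Its mean level went from 2.87 to 5.02 FPKM, and edgeR put the log2 fold change at 0.79 (standard error 0.24, FDR 0.0311). These coefficients describe points that share libraries and depth, and are given without a test.

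Timp1 encodes the inducible TIMP and lies on the X chromosome (positions 20736406 to 20740972, plus strand) in 6 exons (ENSMUST00000115342.10). It was counted with 1 to 34 reads per mouse and 12.9 on average, under the minimum of 20 for testing. LD mice ranged from 0.055 FPKM through a median of 0.556 to 1.51. ADV mice ranged from 0.042 FPKM through a median of 0.622 to 1.50. The means, 0.609 ± 0.375 FPKM (SD, n = 14) and 0.610 ± 0.380 FPKM (SD, n = 16), were almost equal, and 8 of 16 ADV mice exceeded the LD median. In a fit of all genes without the filter the log2 fold change was -0.04 with a 95% interval from -0.65 to 0.58 (edgeR FDR 0.959), so a change of either sign within those bounds remained possible. The correlation of Timp1 with Ccn1 was near 0 in both groups, with r of -0.03 in LD mice (permutation p = 0.914, adjusted p = 0.980) and 0.00 in ADV mice (permutation p = 0.992, adjusted p = 0.992) and rho of -0.01 and -0.02 (permutation p = 0.976 and 0.952, each 0.976 after adjustment). In LD mice r was -0.06 without mice 27 and 36, and in ADV mice -0.08 without mice 26 and 34. Its closest genes were Bgn, Stat3, Map1a, Ttc9 and Rab31, with coefficients of 0.72, 0.70, 0.68, 0.68 and 0.67.

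Timp2, the TIMP that takes part in the activation of pro-MMP2, lies on chromosome 11 (positions 118191888 to 118246332, minus strand) in 5 exons (ENSMUST00000017610.11). LD mice were at 29.5 FPKM in the lowest, 35.4 at the median and 46.5 in the highest. ADV mice were at 26.1 FPKM in the lowest, 32.1 at the median and 39.3 in the highest. Most of the ADV mice lay in the lower part of the LD range, 4 of 16 above the LD median and 3 below the lowest LD mouse. The means were 36.6 ± 5.30 FPKM (SD, n = 14) and 32.6 ± 3.72 FPKM (SD, n = 16), or -0.18 on the log2 scale (standard error 0.06), and the edgeR FDR of 0.0565 missed the threshold. This gene was a border case. DESeq2 gave an FDR of 0.0425, edgeR an FDR of 0.0294 with the trend of counts with GC content removed (log2 fold change -0.23) and 0.0476 with a group-centred clock gene score as a covariate. With the projected clock score, an alternative added after the data were seen, the log2 fold change was -0.07 (edgeR FDR 0.691). Leaving out LD mouse 21, 22 or 36 or ADV mouse 22 or 23 brought the edgeR FDR to between 0.0355 and 0.0441, and the other 25 fits that left out 1 mouse kept it above 0.05.

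Timp3 encodes the TIMP that is bound to the matrix, and lies on chromosome 10 (positions 86136237 to 86185370, plus strand) in 5 exons (ENSMUST00000020234.14). Its LD values were 27.4 FPKM at the lowest, 34.9 at the median and 40.1 at the highest, against 25.5, 33.1 and 49.95 FPKM in the ADV group. The LD range lay within the ADV range, and the means were 34.4 ± 4.07 FPKM (SD, n = 14) and 34.2 ± 6.41 FPKM (SD, n = 16). The log2 fold change was -0.03 with a 95% interval from -0.18 to 0.13 (edgeR FDR 0.846), and its sign turned to 0.0016 with the GC content trend removed.

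Mmp2, the gelatinase that stromal cells make constitutively, lies on chromosome 8 (positions 93553920 to 93580048, plus strand) in 13 exons (ENSMUST00000034187.9). LD mice were at 10.7 FPKM in the lowest, 13.6 at the median and 16.5 in the highest. ADV mice were at 9.56 FPKM in the lowest, 13.5 at the median and 20.7 in the highest, and 8 of the 16 were above the LD median. The means were 13.8 ± 1.88 FPKM (SD, n = 14) and 13.9 ± 2.48 FPKM (SD, n = 16). The log2 fold change was -0.01 with a 95% interval from -0.15 to 0.14 (edgeR FDR 0.958). Its sign was not fixed, at 0.01 with library size alone as the scaling and between 0.00 and 0.02 without LD mouse 23, 28, 30, 33 or 34 or ADV mouse 29, 30, 31, 34 or 35.

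Mmp14, the membrane-bound activator, lies on chromosome 14 (positions 54669070 to 54678722, plus strand) in 10 exons (ENSMUST00000089688.6). It ranged from 4.39 FPKM through a median of 5.56 to 7.64 in LD mice and from 4.47 FPKM through 5.23 to 7.76 in ADV mice, nearly the same span. The means were 5.75 ± 0.85 FPKM (SD, n = 14) and 5.50 ± 0.86 FPKM (SD, n = 16), with a log2 fold change of -0.09 (95% interval from -0.23 to 0.06, edgeR FDR 0.441). The inhibitors exceeded the proteases in FPKM in every mouse. The sum of Timp1, Timp2 and Timp3 over the sum of Mmp2 and Mmp14 had a median of 3.71 in LD mice (2.81 to 4.37) and of 3.56 in ADV mice (2.77 to 4.08), and for Timp2 over Mmp2 the medians were 2.68 and 2.35.

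Lox lies on chromosome 18 (positions 52649142 to 52662939, minus strand) in 8 exons (ENSMUST00000171470.8). Its LD values were 1.06 FPKM at the lowest, 1.98 at the median and 5.17 at the highest, against 1.28, 1.75 and 3.88 FPKM in the ADV group. The highest value belonged to LD mouse 33, and the ADV range lay within the LD range. The means were 2.29 ± 1.13 FPKM (SD, n = 14) and 2.00 ± 0.71 FPKM (SD, n = 16). The difference on the log2 scale, -0.23 (standard error 0.20, edgeR FDR 0.451), was -0.07 without that mouse.

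Sparc, which encodes a collagen-binding protein of basement membranes and connective tissue, was the most abundant member and lies on chromosome 11 (positions 55286248 to 55314009, minus strand) in 10 exons (ENSMUST00000214685.2). LD mice were at 47.3 FPKM in the lowest, 63.2 at the median and 97.9 in the highest. ADV mice were at 45.3 FPKM in the lowest, 70.2 at the median and 191 in the highest. The ADV values leaned upward, with 13 of 16 above the LD median, but only ADV mice 24 and 33 passed the highest LD mouse. The means were 64.7 ± 13.4 FPKM (SD, n = 14) and 81.3 ± 34.3 FPKM (SD, n = 16), or 0.31 on the log2 scale (standard error 0.14, edgeR unadjusted p 0.0390, FDR 0.144), which missed the threshold. Without ADV mouse 24 the log2 fold change was 0.18 (edgeR FDR 0.296). That mouse, at 191 FPKM, also had the highest Adipoq, an adipocyte hormone, at 83.7 FPKM. The part of other cells in its value was not tested.

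Sparc and Mmp2 varied together across mice, with r of 0.69 in LD mice (permutation p = 0.00515, adjusted p = 0.0283) and 0.82 in ADV mice (permutation p = 0.000340, adjusted p = 0.00748), and rho of 0.71 (permutation p = 0.00535) and 0.68 (permutation p = 0.00481), each with an adjusted p of 0.0392. Without the mice farthest from the Mmp2 median, r was 0.65 in LD mice (without mice 32 and 34) and 0.49 in ADV mice (without mice 24 and 31). The genes closest to Mmp2 over the 30 mice were Col1a2, Kctd12, Col1a1, Thbs3 and Ssc5d, with coefficients of 0.87, 0.80, 0.79, 0.78 and 0.78, while Sparc was the 42nd and Timp2 the 103rd. The ratio of Sparc to Col1a1 FPKM had a median of 6.85 in LD mice (5.58 to 9.74) and of 8.87 in ADV mice (6.04 to 13.1), given without a test. Mmp14 and Timp2 had an r of 0.68 in LD mice (permutation p = 0.00704, adjusted p = 0.0310), but rho was 0.46 (permutation p = 0.0989, adjusted p = 0.198) and r was 0.21 without LD mice 23 and 33, so the relation rested on those mice.

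Per exon length, Sparc was the highest of the 9 genes in all 30 mice. Timp2 and Timp3 came next by group mean and did not separate, since Timp2 was above Timp3 in 10 of 14 LD mice and in 6 of 16 ADV mice. Ccn1 lay above both in ADV mice 25 and 29 and above Timp2 in ADV mouse 33. Mmp2 was above Ccn1 in 12 of 14 LD mice and in 4 of 16 ADV mice, so these neighbors changed places between the groups. Ccn1 was above Ccn2 in 10 of 14 LD mice and 15 of 16 ADV mice, and Ccn2 above Mmp14 in 11 of 14 LD mice and in all 16 ADV mice. Lox and then Timp1 were the lowest in every mouse.

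**Figure D3:**
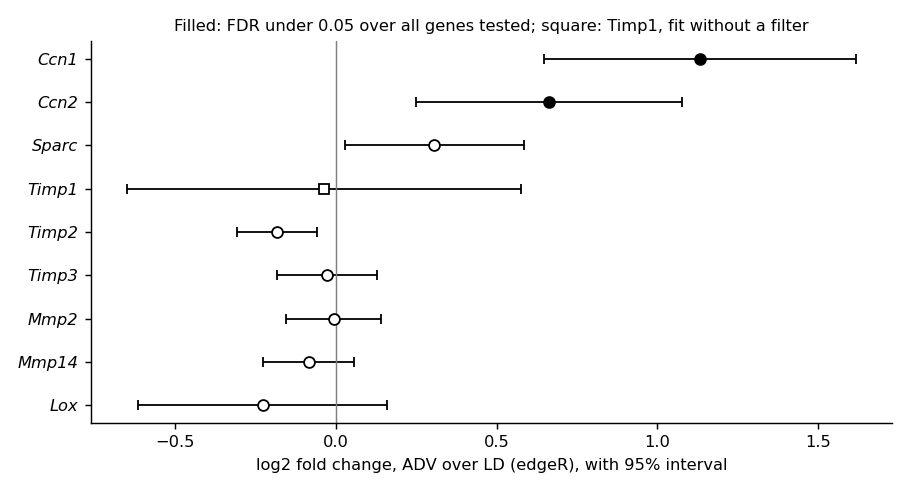
Log2 fold change of each gene, ADV over LD, on the horizontal axis with its 95% interval, from edgeR, with filled circles for an FDR under 0.05 over all genes tested, open circles for the others and a square for Timp1, fitted without the filter. Ccn1 at 1.13 and Ccn2 at 0.66 are filled, and the intervals of Timp1, Timp3, Mmp2, Mmp14 and Lox include 0.

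Of the spread within groups, that of Ccn1 was the widest among the tested members in the ADV group, with a coefficient of variation of 66.3%, against 33.9% in the LD group. For Ccn2 it was 44.2% and 39.5%, and for Sparc 42.1% and 20.8%. For Lox, from the stable set, it was 35.7% and 49.2%, the widest among the tested members in the LD group. Timp2 stayed at 11.4% in ADV and 14.5% in LD mice, and Mmp14 at 15.5% and 14.8%.

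Other genes of matrix turnover and of the pathways that control the members were read from the same fit, 177 genes in 8 lists of which 131 were tested. Of the tested genes 6 rose and 6 fell with an edgeR FDR under 0.05, a share of 12 in 131 beside the 10.8% of all genes tested, and the median log2 fold change was -0.01. By this count the related genes passed about as often as all genes tested.

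Of the other MMP proteases, 7 of 18 were tested. Mmp9, the inducible gelatinase of leukocytes and other cells, fell from a mean of 1.53 to 1.06 FPKM (log2 fold change -0.55, standard error 0.17, edgeR FDR 0.0351), and the other 6 did not pass, among them Mmp15, the most abundant, at 0.11. The median of the 7 was 0.05. A call in this list was kept in 7 of 13 other fits, and there was none without LD mouse 23. Of 12 tested ADAM and ADAMTS proteases 1 passed, Adam15, a membrane protease of endothelial and other cells, at 0.32 (standard error 0.06, edgeR FDR 0.00346), while Adam9, the most abundant, was at -0.07, and the median was -0.04. A list of protease inhibitors and genes of the plasmin system also held the proteases Htra1, Htra3, Ctsb, Ctsk and Ctsl. None of its 13 tested genes passed by edgeR, and 0 by DESeq2 with an FDR under 0.05. At an unadjusted edgeR p under 0.05, 1 was higher, the protease Htra3 at 0.15 (edgeR p = 0.0239), and 1 was lower. The most abundant was Serping1, the inhibitor of the first complement component, at -0.17 (edgeR FDR 0.148), and the median was -0.02.

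Of 15 tested enzymes of collagen crosslinking and processing, Fap, a surface protease of activated fibroblasts, fell by 0.24 on the log2 scale (standard error 0.08, edgeR FDR 0.0407), and P4hb, the most abundant, was at 0.00, with a median of 0.04. Among 19 tested matricellular genes Thbs1 rose and Tgfbi, a matrix protein induced by TGF-beta, fell by 0.25 (standard error 0.07, edgeR FDR 0.0261). Sparcl1, the closest relative of Sparc and the most abundant of this list, was at -0.11 (edgeR FDR 0.228), and the median was -0.05. All 32 matrix substrates were tested and 2 fell, Col14a1, a fibril-associated collagen, by 0.42 (standard error 0.11, edgeR FDR 0.0196) and Lama2, the laminin chain of the muscle basement membrane, by 0.23 (standard error 0.06, edgeR FDR 0.0205). Dcn, the most abundant substrate at 251 FPKM in LD and 235 FPKM in ADV mice, was at -0.11 (edgeR FDR 0.131), and the median was -0.04.

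Among 16 tested YAP and TEAD targets outside the members, 2 rose. Ankrd1, a stretch-responsive ankyrin repeat gene of muscle, went from 6.04 ± 2.12 FPKM (SD, n = 14) to 12.2 ± 5.36 FPKM (SD, n = 16), or 0.997 on the log2 scale (standard error 0.20, edgeR FDR 0.00346), with 14 of 16 ADV mice above the LD median. Amotl2, a feedback regulator of YAP, was at 0.25 (standard error 0.08, edgeR FDR 0.0321). The other 14 did not pass, Axl, the most abundant, was at 0.03, and the median of the 16 was 0.00. Of 18 tested TGF-beta ligands, receptors and SMADs, Smad7, an inhibitor of the pathway, and Eng, an endothelial co-receptor, each rose by 0.38 (edgeR FDR 0.0260 and 0.00537), and Ltbp1, a carrier of latent TGF-beta, fell by 0.21 (edgeR FDR 0.0239). Ltbp4, the most abundant, was at 0.12 (edgeR FDR 0.144), and the median was 0.01.

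**Figure D4:**
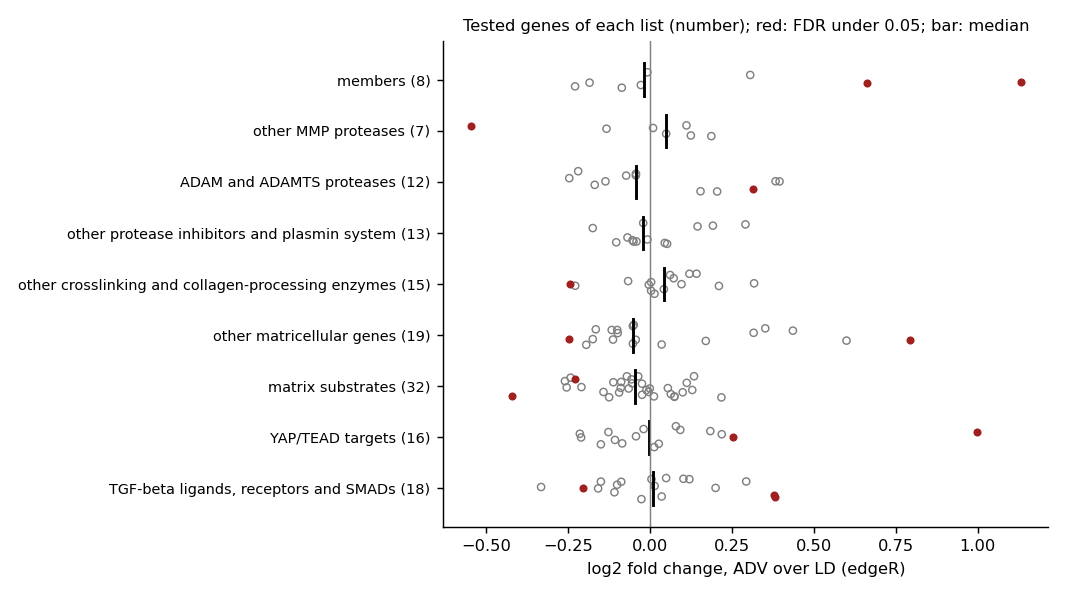
Log2 fold change, ADV over LD (horizontal axis, edgeR), of each tested gene of the members and of the 8 related lists, 1 point per gene, red for an FDR under 0.05 and open grey for the others, with a black bar at the list's median. The medians lie between -0.05 and 0.05, and Ccn1, at 1.13, is the point farthest to the right, followed by Ankrd1 at 0.997.

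Immediate early genes, which stimuli induce within minutes, were in part also higher in the ADV group. Of 22 tested genes of that list, 12 had an edgeR FDR under 0.05, each of them in that direction, beside 5.61% of all genes. The other 10 did not pass, among them Nr4a1, the most abundant, at 0.02 (edgeR FDR 0.958). All 22 had a log2 fold change above 0, with a median of 0.43. The summed level of the list was 137 to 236 FPKM in LD mice and 184 to 537 FPKM in ADV mice. Ccn1 and Fos, a subunit of the AP-1 factor, had an r of 0.76 in ADV mice (permutation p = 0.00105, adjusted p = 0.00829), but rho was 0.55 (permutation p = 0.0291, adjusted p = 0.126) and r was 0.41 without ADV mice 25 and 29, so this relation rested largely on those mice. In LD mice r was 0.59 (permutation p = 0.0268, adjusted p = 0.0774), rho 0.53 (permutation p = 0.0535, adjusted p = 0.126) and r 0.07 without LD mice 23 and 26. Clock genes moved with the group as well, 4 of 19 higher and 9 lower by the same test, beside 5.61% and 5.2% of all genes tested. Tef, the most abundant of them, was at -0.28 (edgeR FDR 0.00485). With a clock gene score centred within each group as a covariate, 1387 of 12030 genes had an edgeR FDR under 0.05, and Ccn1 was at 1.13 (standard error 0.25, edgeR FDR 0.00579) and Ccn2 at 0.66 (standard error 0.22, edgeR FDR 0.0440). Being centred within each group, that score could not take up a clock difference between the groups, so these values are not adjusted for it. A projected score, which keeps the difference between the groups and was added after the data were seen, ran from -8.36 to 3.33 in LD mice and from -3.08 to 5.28 in ADV mice. With it as a covariate 0 of 12030 genes passed by edgeR, with 1795 at an unadjusted p under 0.05. In that fit Ccn1 was at 1.26 (standard error 0.34, edgeR FDR 0.0901) and Ccn2 at 0.67 (standard error 0.27, edgeR FDR 0.235). What part clock phase at the time of sampling had in the rise of Ccn1 and Ccn2 was not tested.

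Markers of cells that could supply these transcripts were summed in each mouse. Among all genes tested, 10.8% had an edgeR FDR under 0.05, 30.1% an unadjusted edgeR p under 0.05 and 14% a DESeq2 FDR under 0.05. A marker count near these shares is no result about its cell type. The 13 fibroblast markers came to 756 to 1160 FPKM in LD and 726 to 1085 FPKM in ADV mice, all 13 were tested, and 1 passed, Pdgfra, lower at -0.24 (edgeR FDR 0.0194). Endothelial markers came to 86.7 to 120 and 100.04 to 131 FPKM, with 2 of 10 higher, Pecam1 at 0.16 and Emcn at 0.27. Smooth muscle and pericyte markers, at 135 to 182 and 137 to 197 FPKM, had 1 of 10 higher, Tagln at 0.29. Adipocyte markers, at 632 to 1198 and 700.4 to 1728 FPKM, had 1 of 8 higher, Fabp4 at 0.36, and Car3, which muscle fibers also express, made up most of that sum at means of 678 and 826 FPKM. All 8 had a log2 fold change above 0 (median 0.44), 5 at an unadjusted edgeR p under 0.05 and 2 with a DESeq2 FDR under 0.05. Schwann cell markers, at 25.6 to 49.0 and 27.6 to 85.8 FPKM, had 1 of 7 tested higher, Ncmap at 0.92. All 7 were above 0 (median 0.45), 6 at an unadjusted edgeR p under 0.05 and 4 with a DESeq2 FDR under 0.05. Of 4 tested satellite cell markers Myod1 was higher, at 0.73, and their sums were 12.5 to 21.4 and 14.3 to 29.6 FPKM. At an unadjusted edgeR p under 0.05, 3 fibroblast markers were lower, 2 endothelial were higher and 1 lower, 4 smooth muscle and pericyte were higher and 1 lower, and 1 satellite cell marker was higher, and DESeq2 gave an FDR under 0.05 to 1, 2, 3 and 1 markers of these 4 lists. None of 7 tested tendon, 10 leukocyte and 10 muscle fiber markers had an edgeR FDR under 0.05, with 1 tendon, 3 leukocyte and 2 muscle fiber markers at an unadjusted p under 0.05, while DESeq2 gave an FDR under 0.05 to 0 tendon, 1 leukocyte and 0 muscle fiber markers. Only 1 of the 10 leukocyte markers had a log2 fold change above 0 (median -0.26), and the 3 at an unadjusted edgeR p under 0.05 were lower. Sums of the tendon, leukocyte and muscle fiber lists overlapped between the groups, at 33.9 to 64.4 and 40.03 to 111 FPKM for tendon, 59.2 to 148 and 53.4 to 105 FPKM for leukocytes, and 62384 to 81443 and 64017 to 83666 FPKM for muscle fibers. The muscle fiber genes had by far the highest sums, and the labels name the tissue as gastrocnemius muscle. The most abundant marker of each list was Gsn for fibroblasts, Pecam1 for endothelium, Rgs5 for pericytes, Car3 for adipocytes, Pmp22 for Schwann cells, Myod1 for satellite cells, Thbs4 for tendon, C1qa for leukocytes and Tnnt3 for muscle fibers. The part of these cells in the members' levels was not tested.

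**Figure D5:**
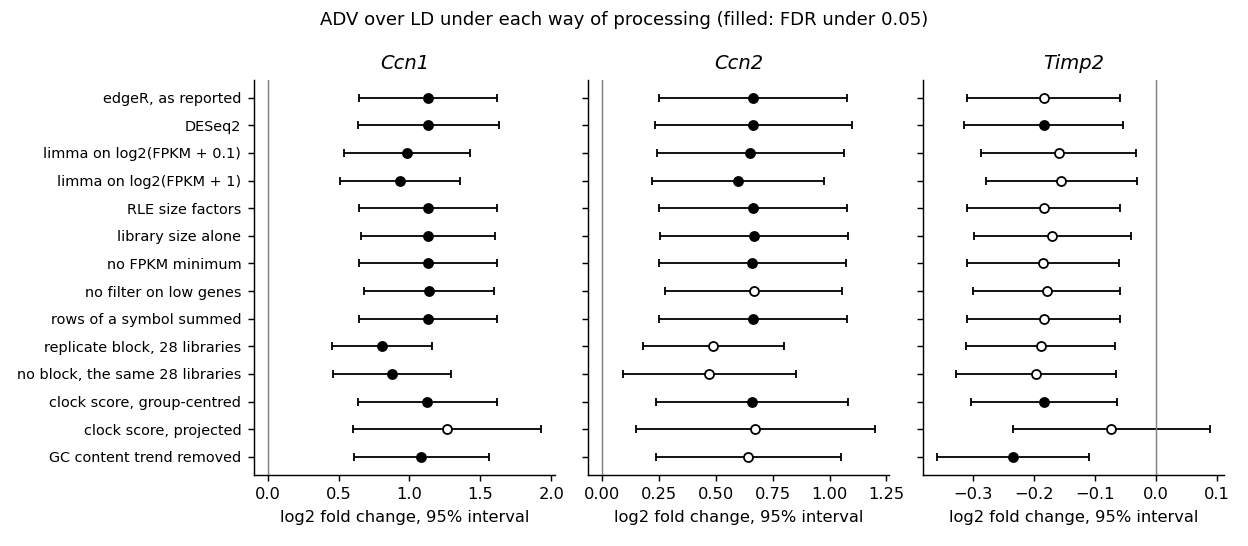
Log2 fold change of Ccn1, Ccn2 and Timp2, ADV over LD (horizontal axes, with 95% intervals), under each way of processing, with filled points for an FDR under 0.05. Ccn1 is open in 1 row, the projected clock score at 1.26, Ccn2 is open in 5 rows, and Timp2 is filled in 3 rows, between -0.23 and -0.18.

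Exons of 6 members overlap a gene on the opposite strand in GENCODE vM39. Syn3 shares 36.7% of the exon bases of Timp3, and was at a mean of 0.0852 FPKM. The noncoding genes Gm15270 at Ccn2 (33.2%), Gm45472 at Mmp2 (27.8%) and Gm17501 at Ccn1 (23% of exon bases) were at 0.226, 0.0092 and 0.645 FPKM, and overlaps at Mmp14 and Lox were 6.24% and 0.665%. The kit kept the strand of the RNA, but whether the counting used it is not given in the sources used here.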

How the data were processed

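Members and gene lists were chosen with earlier results of these data known. Poly(A)-enriched stranded RNA of 30 muscles, 14 LD and 16 ADV by the sample titles, was sequenced in 101-bp paired-end reads. The authors used Trimmomatic for trimming and STAR 2.7.10a for mapping to GRCm39, removed reads of mapping quality under 10 and counted reads on exons of UCSC known canonical transcripts with HOMER 4.11 (versions from the submitters' processing notes). The deposited raw values are estimated counts, in which each mate counts 0.5 read, so 14.8% ended in a fraction and every value was rounded for the tests. The authors also deposited FPKM values, the counts scaled by exon length and by the HOMER total, which give the levels printed here.

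The tables hold 57186 rows. For each symbol the longest row with a mean over 20 reads was kept, and genes with a mean FPKM over 0.5 were tested (12030). edgeR 4.0.16 (R 4.3.3) was run with TMM normalization, the quasi-likelihood F test and p-values adjusted after Benjamini and Hochberg across the tested genes (FDR), and standard errors were taken from its F statistic. A fold change over 1.3 was added for counts of genes called. Correlations within a group used log2 CPM and 100000 permutations (two-sided, scipy 1.17.1). Similarity between genes was Spearman's coefficient on group-centred log2 CPM. Counts of 2 libraries of a group never came within sampling noise (smallest chi-square per degree of freedom 8.48). Promoters of 8 members were read from the GRCm39 genome, and 1 promoter is not reported here.

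The clock score was the first component of the group-centred log2 CPM of the clock genes, and its projected form, added after the data were seen, also carries the difference between groups. Other alternatives were DESeq2 1.42.0, limma 3.58.1 on log2(FPKM + 0.1) and log2(FPKM + 1), other size factors, other filters, summed rows, a block by label number, a GC content correction by a natural spline (4 degrees of freedom, fitted where the mean exceeded 50 reads), and leaving out each mouse. The tests were also run on independent negative binomial counts, simulated with the trended dispersion. Such counts lack the outlying mice and the variation shared between genes of these data, so that run cannot vouch for the calls.

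Named genes were the members, the genes of each list with an FDR under 0.05 (at most 6), the most abundant gene of each list and the 5 genes closest to Timp1, Ccn1, Ccn2 and Mmp2. Htra3, Pdgfra, Emcn, Tagln, Fabp4, Ncmap, Adipoq and the overlapping genes were named after their values were seen. Library depth limits genes with few reads. Intervals give the uncertainty of the estimated difference between the groups, not the range of single mice.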

Additional observations from a re-analysis of the deposited data

How the results depend on the processing

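The rise of Ccn1 kept its direction and an FDR under 0.05 in 12 of 13 other fits and in all 30 that left out 1 mouse (log2 fold change 0.93 to 1.23), and fell short at 1.26 (FDR 0.0901) with the projected clock score, a fit in which the median standard error was 1.35 times that of the reported one. The 13 fits include the group-centred clock score, which could not take up a clock difference between the groups. Ccn2 stayed positive throughout but passed in 8 of 13, missing at 0.67 (FDR 0.0691) with no filter on low genes, 0.49 (FDR 0.0818) with the block, 0.47 (FDR 0.138) without it in the same 28 libraries, 0.64 (FDR 0.0626) with the GC content trend removed and 0.67 (FDR 0.235) with the projected clock score, and it ran from 0.57 to 0.74 with 1 mouse left out. Timp2 was -0.18 with DESeq2 and with the group-centred clock score and -0.23 with the GC content trend removed, each with an FDR under 0.05, -0.07 (FDR 0.691) with the projected score, and -0.20 to -0.15 with 1 mouse left out. Sparc had no FDR under 0.05 in 13 other fits, at 0.14 with the block, 0.15 in the same 28 libraries without it, 0.51 with the projected score and 0.18 to 0.36 with 1 mouse left out. Mmp2 turned to 0.0066 in both limma fits, 0.0076 with library size alone and 0.0345 with the projected score, and ran from -0.0503 to 0.0228 with 1 mouse left out. Timp3 turned to 0.0016 with the GC trend removed and 0.23 with the projected score, which also turned Lox to 0.31. The causes were not tested. Of all genes tested, 252 were called with a fold change over 1.3, against 307 with DESeq2, 124 with limma on log2(FPKM + 1), 137 with the block, 151 in the same 28 libraries without it, 167 with the GC trend removed, 0 with the projected score (edgeR, 1795 at an unadjusted p under 0.05), 1301 with no fold change limit and 190 to 302 with 1 mouse left out. Members with an FDR under 0.05 numbered 3 with DESeq2, 1 with no filter, with the block and without it in 28 libraries, 0 with the projected score and 1 to 3 with 1 mouse left out. In the related lists 12 genes passed, against 17 with DESeq2, 5 with no filter, 5 with the block, 6 without it, 0 with the projected score and 9 to 16 with 1 mouse left out. The label numbers pair no mice by any source, and deviations of the 14 numbers shared by both groups had correlations from -0.26 to 0.43, with 6 over 0.1 and 3 best matched by their own number. ADV mice 24 and 25 have no partner and drop out of the block. With the 2 farthest mice left out, correlations in ADV mice turned to -0.0818 for Timp1 and Ccn1, -0.36 for Timp1 and Timp3, -0.12 for Mmp2 and Mmp14 and -0.17 for Lox and Sparc, and in LD mice to -0.0087 for Lox and Sparc, also -0.0087 on log2(FPKM + 0.1).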

Other observations

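Lox and Sparc, an enzyme that cross-links collagen and a protein that binds it, had an r of 0.04 in LD mice (permutation p = 0.880, adjusted p = 0.980) and 0.10 in ADV mice (permutation p = 0.709, adjusted p = 0.975), with rho of 0.16 and -0.07 (permutation p = 0.583 and 0.790, adjusted p = 0.802 and 0.914). Mmp2 and Timp2, a protease and its inhibitor, had positive coefficients in both groups that missed 0.05 once adjusted, with an r of 0.63 in LD mice (permutation p = 0.0155, adjusted p = 0.0567) and 0.54 in ADV mice (permutation p = 0.0281, adjusted p = 0.0774), with rho of 0.55 and 0.52 (permutation p = 0.0436 and 0.0400, each 0.126 after adjustment), and r was 0.78 and 0.48 without the 2 farthest mice of each group. On log2(FPKM + 0.1) the ADV value was 0.65 (permutation test, adjusted p = 0.0266).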
